A study of Homo sapiens with 6 samples.

Results

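Double-stranded RNA inside a cell is met by a small set of proteins whose genes respond to interferon, and 6 of them were described here in STAG2-depleted melanoma cells: OAS1, OAS2, OAS3, OASL, EIF2AK2 (the kinase PKR) and ADAR. They were taken by symbol from a gene table of 57820 rows, in which each of the 6 symbols was found, and all 6 passed the filter on low counts that left 15605 genes for testing. The libraries were made from M14, an established human melanoma line that stably carried a doxycycline-inducible short hairpin RNA against STAG2, a subunit of the cohesin ring that holds chromatin loops. Cells left without doxycycline (WT) and cells given doxycycline for 5 days (STAG2 KD) gave 3 RNA-seq libraries each. Both groups carried the same hairpin construct. The study names hygromycin, blasticidin or puromycin for selecting stable populations and does not say which was used for this line. A single hairpin in a single line was used and doxycycline was added only to KD cells, so the drug, the hairpin and the loss of STAG2 cannot be told apart in this design. The study calls the libraries of a group biologically independent samples, and the labels do not say how the cultures were separated.

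The OAS enzymes bind double-stranded RNA and join ATP into short oligoadenylates, a second messenger that sets off RNA decay. OASL is the family member without synthetase activity, carries ubiquitin-like domains and acts in RIG-I signalling. PKR also binds double-stranded RNA and phosphorylates the initiation factor eIF2, which lowers translation, whereas ADAR converts adenosine to inosine in double-stranded RNA and so lowers its recognition by these same sensors and by MDA5.

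Deposited totals lay between 24895998 and 35181733 expected counts per library, and a floor of 3 counts corresponded to 0.0870 to 0.112 CPM, the expected count scaled by library size. STAG2 itself was at 66.5, 34.8 and 28.8 CPM in WT replicates 1, 2 and 3 and at 16.0, 7.31 and 6.70 CPM in KD replicates 1, 2 and 3, a log2 fold change of -2.12 (SE 0.43, edgeR quasi-likelihood test with Benjamini-Hochberg adjustment, adjusted p = 0.0342). That call was lost when WT replicate 2, WT replicate 3, KD replicate 2 or KD replicate 3 was left out (adjusted p = 0.0652 to 0.168), and it was kept with the replicate number as a block (adjusted p = 0.0001). All 8 melanocyte lineage markers were detected in every library. Of these, 1 was lower in KD (S100B, log2 fold change -1.35, edgeR adjusted p = 0.00949) and 0 were higher. With the replicate block 6 were lower, by log2 fold changes of -1.52 to -0.69. The shares of all tested genes that were lower were 0.839% without and 4.42% with the block. MITF passed in neither fit (-1.01, edgeR adjusted p = 0.396, and -0.80, 0.0668 with the block). TYR went the other way without passing, at 0.35 (0.792), or 0.51 with the block (0.129). The summed level of the 8 markers was highest in replicate 1 of each condition, so replicate 1 stood apart on both sides of the comparison. It was 6311 CPM in WT and 2606 CPM in KD, against 1861 to 1916 CPM and 1195 to 1267 CPM in the other replicates. PMEL (3370 CPM) and DCT (1432 CPM) were the largest parts in WT replicate 1. The list did not shift as one, since SOX10 was lowest in replicate 1 of each condition (572 CPM in WT and 324 CPM in KD). WT replicate 1 also had the largest mitochondrial share of counts, 5.07% against 2.12% to 2.94% in the other libraries. Of the leukocyte markers, PTPRC was at 0 in 5 of 6 libraries, CD3E was at 0 in all 6, and the whole list summed to 1.83 to 4.59 CPM. Fibroblast markers summed to 4.25, 93.6 and 63.0 CPM in WT and to 3.49, 23.6 and 18.6 CPM in KD, and of the 4 tested 0 passed, or 1 with the block (COL1A1, lower, adjusted p = 0.00232). Epithelial markers summed to 153 to 460 CPM, mostly KRT8 and KRT18, and 0 of the 3 tested passed. The part of these markers in the members' results was not tested.

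OAS1, OAS3 and OAS2 lie side by side on the plus strand of chromosome 12, at chr12:113343661-113371024, chr12:113375856-113414265 and chr12:113416200-113449528 in GRCh37. OASL lies apart from this cluster on the minus strand at chr12:121455566-121477049. EIF2AK2 spans chr2:37326353-37384665 and ADAR spans chr1:154554171-154600489, both on the minus strand. No annotated gene on the same strand overlaps any of the 6. An antisense RNA gene over the OAS cluster, RP1-71H24.1, was at 0 in 5 libraries and at 13.1 expected counts in KD replicate 3. The libraries were made with a directional kit, but the strand setting of the counting was not given in the sources used here, so reads of overlapping genes on opposite strands may not have been separated.

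The members' promoter windows were searched for 2 letter patterns on either strand. These were the interferon-stimulated response element core, 2 copies of GAAA with any 2 bases between, and the STAT site TTCNNNGAA. RefSeq windows of 300 bases (250 before and 50 from the start, GRCh38.p14) were at hand for OAS1, OAS3, EIF2AK2 and ADAR, with OAS2 and OASL missing. The response element core was found in 3.57% of all 35116 windows, in 3.96% of the 11200 tested genes with a window, in 52 of 210 genes higher in KD (24.8%) and in 1 of 99 genes lower in KD (1.01%). It occurred 2 times in OAS3, starting 143 and 12 bases before the start, and 1 time in EIF2AK2, from 6 bases before the start. The OAS1 window held the pattern only with 1 base between (GAAANGAAA, looked for after the values were seen). That form was found in 3.12% of all windows, 3.52% of tested genes, 16.2% of those higher and 4.04% of those lower. In the 3 ADAR windows none of these patterns was found. The STAT pattern was found in 7.66% of all windows, in 8.58% of tested genes, in 15.7% of those higher and in 11.1% of those lower. Among the members it was in OAS1 alone, 168 bases before the start. The stretches that hold the response element core are given here for OAS3 and EIF2AK2. For OAS1 the stretch given holds only the form with 1 base between. Capitals mark the matches, and the sequences end at the base before the start for OAS1 and OAS3 and 4 bases past it for EIF2AK2.
OAS1, chr12:112906920-112906961, plus strand: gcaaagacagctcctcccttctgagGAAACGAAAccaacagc
OAS3, chr12:112938301-112938473, plus strand: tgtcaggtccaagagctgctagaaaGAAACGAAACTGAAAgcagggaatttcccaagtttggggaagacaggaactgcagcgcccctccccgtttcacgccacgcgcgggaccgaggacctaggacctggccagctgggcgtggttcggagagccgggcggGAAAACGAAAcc
EIF2AK2, chr2:37156977-37157011, minus strand: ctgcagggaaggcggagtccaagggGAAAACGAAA
In OAS3 the upstream run of capitals is 2 overlapping matches, one with 1 base and one with 2 bases between the repeats. A match describes letters only and says nothing of a bound factor.

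All 6 members were higher in KD than in WT, and in each of them every KD library lay above every WT library. Across the 15605 genes tested, 273 (1.75%) were higher and 131 (0.839%) lower at an adjusted p under 0.05, and 1847 (11.8%) had all 3 KD libraries above all 3 WT libraries. The median log2 fold change was 4.03 over the members and -0.03 over all genes tested. The members' changes ranged from 2.74-fold for ADAR to 43.4-fold for OASL. In bulk RNA, a change in the number of expressing cells and a change in RNA per cell cannot be told apart. With the replicate block the calls over all genes rose to 796 higher (5.1%) and 690 lower (4.42%), and all 6 members were again among the higher genes. Of every library's counts, the 6 genes together took 0.0315%, 0.0401% and 0.0329% in WT and 0.302%, 0.329% and 0.357% in KD.

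OAS1, a synthetase with a single catalytic unit, measured 19.6, 24.8 and 27.2 CPM in WT replicates 1, 2 and 3. It measured 449, 502 and 574 CPM in KD replicates 1, 2 and 3. The 2 groups were far apart, and within each condition replicate 1 was the lowest. The mean rose from 23.9 ± 3.88 to 508 ± 62.8 CPM (SD, n = 3 each), 21.3-fold, with a log2 fold change of 4.41 (SE 0.23, 95% interval 3.89 to 4.94, edgeR adjusted p = 2.08e-05). OAS2, a family member with a repeated synthetase unit, was at 30.1, 44.6 and 41.2 CPM in WT. In KD it was at 804, 1001 and 931 CPM. Its mean rose 23.6-fold, from 38.7 ± 7.57 to 912 ± 99.7 CPM (SD, n = 3 each), with a log2 fold change of 4.56 (SE 0.25, interval 4.0 to 5.12, edgeR adjusted p = 2.08e-05). The spread between KD libraries, 12.4% of the mean for OAS1 and 10.9% for OAS2, was narrow against either change.

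OAS3, the longest family member and a sensor of long double-stranded RNA, was at 51.1, 99.3 and 93.2 CPM in WT and at 767, 1131 and 1146 CPM in KD. Replicate 1 was again the lowest on each side. The change was 12.5-fold, a log2 fold change of 3.64 (SE 0.32, interval 2.94 to 4.35, edgeR adjusted p = 0.000323). OASL had the lowest mean WT level of the 6, also per length, at 0.857, 8.50 and 8.34 CPM, and reached 259, 201 and 312 CPM in KD. WT replicate 1 held only 23 expected counts of OASL, against 293 and 229 in WT replicates 2 and 3, so its WT spread (74.0% of the mean) was the widest among the members. The log2 fold change was 5.44 (SE 0.69, interval 3.89 to 6.99, edgeR adjusted p = 0.00317), and leaving out 1 library at a time gave 4.93 to 5.80.

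EIF2AK2 was at 27.3, 14.1 and 17.2 CPM in WT and at 144, 103 and 102 CPM in KD. In contrast to the OAS genes of the cluster, it was highest in replicate 1 in both conditions. It rose 5.95-fold, with a log2 fold change of 2.57 (SE 0.29, interval 1.93 to 3.22, edgeR adjusted p = 0.00144). ADAR, which is transcribed from a constitutive and from an interferon-inducible promoter, had the highest WT level of the 6, also per length, at 163, 218 and 163 CPM, and was at 406, 526 and 556 CPM in KD. Its log2 fold change was 1.45 (SE 0.22, interval 0.96 to 1.94, edgeR adjusted p = 0.00836), the smallest of the 6 and 2.74-fold. The ADAR call was lost without WT replicate 3 (log2 fold change 1.38, adjusted p = 0.0575), without KD replicate 2 (1.41, adjusted p = 0.0517) and without KD replicate 3 (1.35, adjusted p = 0.0779). The other 5 members kept theirs with any 1 library left out. The deposited values are summed over all transcripts of a gene, so the ADAR isoforms could not be told apart.

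**Figure D1:**
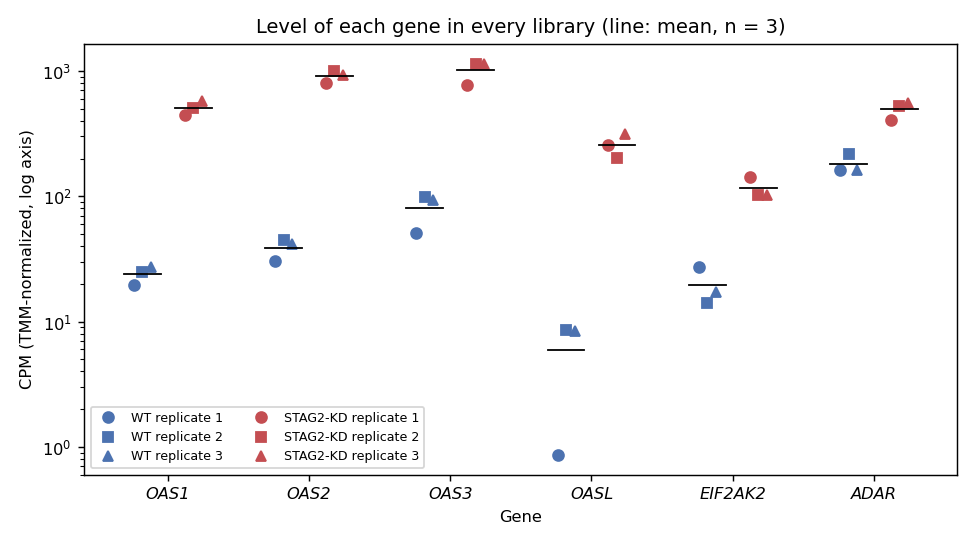
Level of each of the 6 genes in each library, in CPM on a log axis, with a point for each of the 3 WT and 3 STAG2 KD libraries (its shape gives the replicate) and a line at each group mean. No KD point falls among the WT points of its gene, the ADAR groups lie nearest to each other (163 to 218 CPM against 406 to 556 CPM), and the single low WT point of OASL is WT replicate 1.

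**Figure D2:**
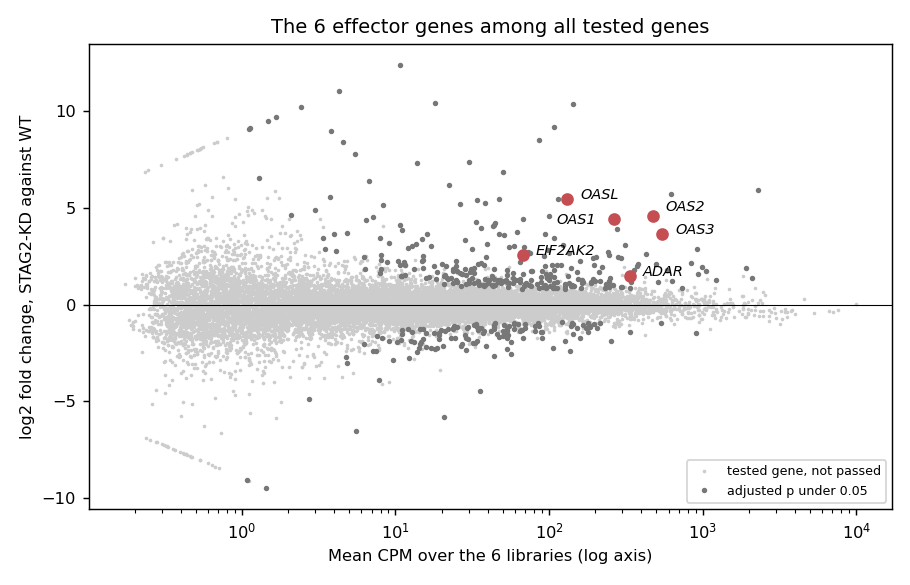
Log2 fold change (STAG2 KD against WT) against mean CPM over the 6 libraries (log axis) for the 15605 genes tested, with dark points for those past the threshold and the 6 members in red. OASL, OAS2, OAS1 and OAS3 lie well above the main body of points at 3.64 to 5.44, EIF2AK2 at 2.57 and ADAR at 1.45, while the median over all genes is -0.03.

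Ranked by log2 fold change among the 15605 genes, OASL stood at position 54, OAS2 at 75, OAS1 at 81, OAS3 at 117, EIF2AK2 at 236 and ADAR at 663. Without both replicate 1 libraries, which leaves 2 against 2 and was tried after the data were seen, the log2 fold changes were 4.38 for OAS1, 4.5 for OAS2, 3.57 for OAS3, 4.93 for OASL, 2.72 for EIF2AK2 and 1.51 for ADAR, and all 6 passed (edgeR adjusted p = 5.16e-05 to 0.00466).

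To compare levels between the genes, CPM were divided by the length of each gene's merged exons. In WT the order was ADAR (14.8 CPM per kb), OAS3 (4.5), OAS2 (3.44), OAS1 (1.83), EIF2AK2 (1.77) and OASL (0.933). In KD the order was OAS2 (81.2 CPM per kb), OAS3 (56.2), OASL (40.7), ADAR (40.5), OAS1 (39.0) and EIF2AK2 (10.5). The KD values of OASL (31.7 to 49.4), ADAR (33.2 to 45.4) and OAS1 (34.5 to 44.1 CPM per kb) overlapped each other, so these 3 neighbours did not differ beyond their spread. KD OAS3 (42.5 to 63.5 CPM per kb) also overlapped OASL, ADAR and OAS1. In WT, 3 steps of the order overlapped: OAS3 with OAS2 (2.83 to 5.50 and 2.68 to 3.97 CPM per kb), OAS1 with EIF2AK2 (1.51 to 2.09 and 1.28 to 2.47) and EIF2AK2 with OASL (0.136 to 1.35 for the latter). ADAR stood clear of the others in WT, as OAS2 and EIF2AK2 did in KD. Taking the longest annotated transcript as the length changed the values but neither order. Both lengths come from the annotation (13021 and 7546 bases for OAS1), and the transcripts expressed in these cells were not resolved. The order between genes and the OAS shares below therefore depend on the lengths used.

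The make-up of the OAS family on this per-length scale also shifted. OAS3 made 39.6%, 43.2% and 42.2% of the summed OAS level in WT and 22.4%, 28.2% and 26.5% in KD, groups without overlap. OASL made 1.89%, 10.6% and 10.8% in WT and 21.6%, 14.3% and 20.6% in KD, also without overlap. OAS1 averaged 17.7% in WT and 18% in KD, and OAS2 averaged 32.9% and 37.5%. With the longest transcript as the length, OAS2 (39.8%) was slightly above OAS3 (39.0%) in WT replicate 1.

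**Figure D3:**
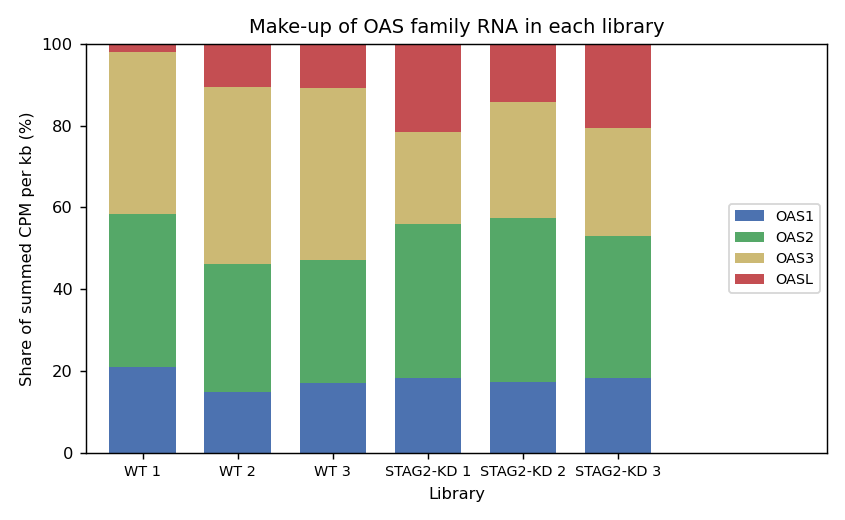
Share of each OAS gene in the summed OAS level per exon length, in percent, for each of the 6 libraries. OAS3 is the largest share in every WT library on this length (39.6% to 43.2%) and falls to 22.4% to 28.2% in the KD libraries, while OASL goes from at most 10.8% to at least 14.3%.

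The genes that oppose the oligoadenylate signal did not pass the test. ABCE1, an inhibitor of that signal and a ribosome recycling factor, was at a log2 fold change of -0.17 (edgeR adjusted p = 0.884). PDE12, which degrades the oligoadenylates, was at 0.11 (0.893), and AKAP7 was at 0.19 (0.940). None of these 3 passed with the replicate block either. Of all tested genes only 1.75% were higher and 0.839% lower, or 5.1% and 4.42% with the block. A lack of calls among 3 genes therefore does not set them apart from all genes. All 4 OAS genes passed in both fits.

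Around PKR, 1 of 19 tested genes of the eIF2 list was higher and 0 were lower, with a median log2 fold change of 0.05. The shares over all tested genes in the same fit were 1.75% higher and 0.839% lower. The listed gene that rose was PPP1R15A (GADD34), the stress-induced subunit that directs a phosphatase back to eIF2. It was at 109, 93.7 and 108 CPM in WT and at 243, 213 and 220 CPM in KD, with a log2 fold change of 1.12 (edgeR adjusted p = 0.0120). Its call was lost without WT replicate 2, WT replicate 3, KD replicate 2 or KD replicate 3 (adjusted p = 0.0556 to 0.0854). EIF2S1, the eIF2 subunit that PKR phosphorylates, was at 0.53 (adjusted p = 0.461), and PRKRA, the protein activator of PKR, at -0.14 (0.882). With the replicate block the list gave 2 higher and 2 lower genes, where 5.1% of all tested genes were higher and 4.42% lower. Whether the list differed from all genes was not tested. PPP1R15B, the constitutive paralogue of GADD34, joined the higher genes at a block-adjusted p of 0.0121 (0.161 without the block). TARBP2, a PKR inhibitor, and PPP1CA, the phosphatase subunit, were lower at block-adjusted p of 0.0477 and 0.0281.

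Among the editing and other double-stranded RNA binding genes, 12 of 13 were tested, with a median log2 fold change of -0.04. Of these, 1 was higher and 0 were lower, against 1.75% and 0.839% of all tested genes. PNPT1, which degrades RNA in mitochondria, went from 30.0, 14 and 23.3 CPM in WT to 72.4, 44.8 and 70.2 CPM in KD (log2 fold change 1.48, edgeR adjusted p = 0.0416). This call was kept only when the library left out was WT replicate 1 and was lost without any of the other 5 (adjusted p = 0.0701 to 0.192). ADARB1, the second active editing enzyme, was at -0.82 (adjusted p = 0.334), and ADARB2 was at 0 in every library. The helicase DHX9 was at -0.62 (0.203, or 0.0307 with the block, then counted as lower). ZBP1, a sensor of left-handed RNA, was at 0, 0 and 0.983 CPM in WT and at 4.70, 3.69 and 2.97 CPM in KD. Its groups did not overlap, but at these low levels it did not pass (adjusted p = 0.309).

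RIG-I-like receptors are the other cytosolic sensors of double-stranded RNA. Of 10 genes of the RIG-I-like receptor list, 4 were higher and 0 lower (median log2 fold change 0.40), against 1.75% and 0.839% of all tested genes. DDX58 (RIG-I) rose by 4.28 on the log2 scale (edgeR adjusted p = 0.000236), IFIH1 (MDA5) by 3.62 (0.00132) and DHX58 (LGP2) by 3.63 (2.08e-05). TRIM25, the ubiquitin ligase of RIG-I, was at 1.20 (adjusted p = 0.0486) and lost its call without any library except KD replicate 1 (0.0702 to 0.239). Their shared adaptor MAVS was at 0.01 (0.991). IRF9 and STAT2, subunits of the factor that binds interferon-stimulated response elements, were higher by 2.66 and 1.94. So were the RNA-binding IFIT genes: IFIT1 at 5.44, IFIT3 at 4.55, IFIT2 at 4.09 and IFIT5 at 2.49, the last with a call lost in 5 of the 6 fits that left out a library (0.0796 to 0.114).

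**Figure D4:**
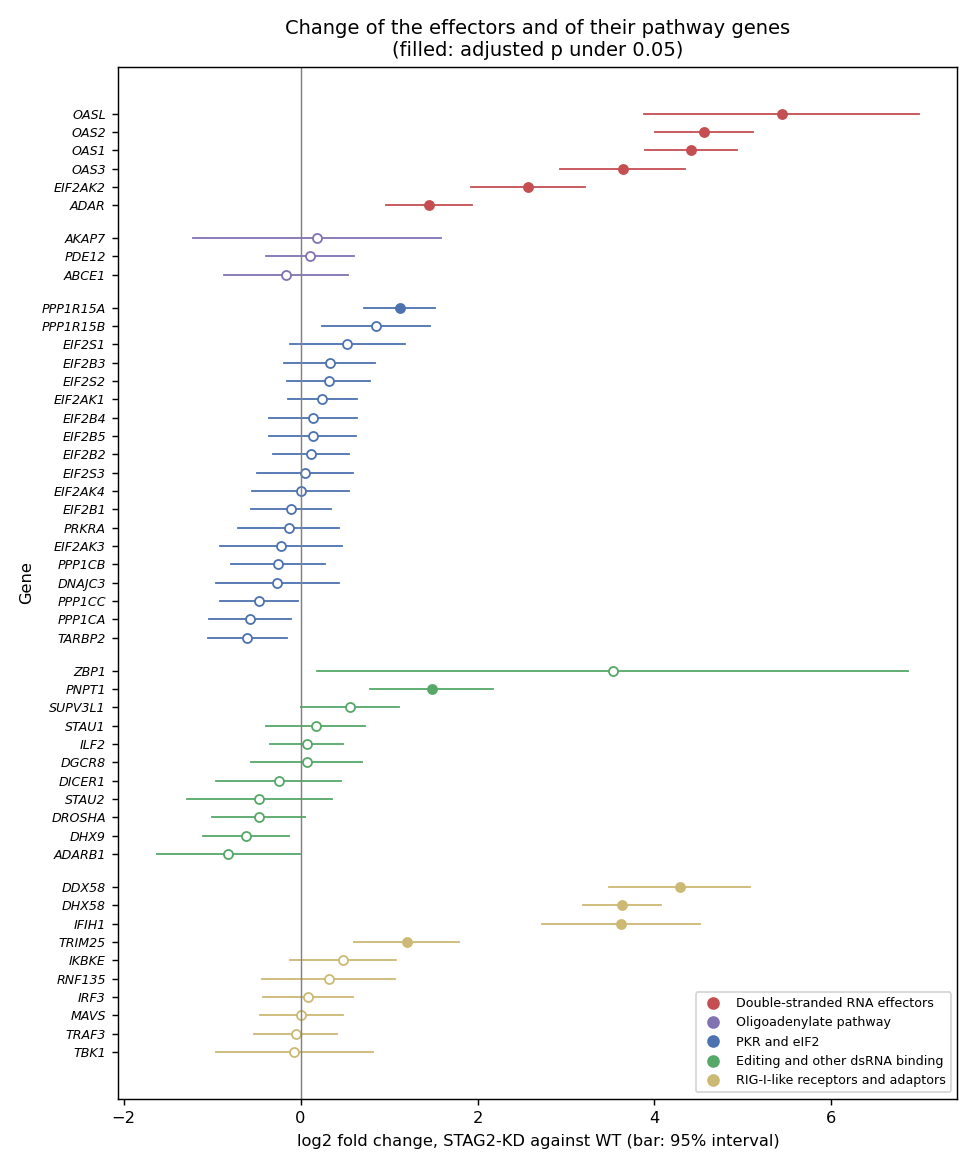
Log2 fold change with 95% interval (STAG2 KD against WT) for the 6 members and tested genes of the 4 pathway lists, coloured by list and filled where the adjusted p passed. The intervals of the members and of DDX58, IFIH1 and DHX58 lie to the right of 0, and those of ABCE1, EIF2S1 and MAVS span 0.

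None of 7 neighbouring tested protein-coding genes at the 4 loci passed the test. Of all tested genes only 1.75% were higher and 0.839% lower, so a lack of calls among 7 genes does not set the members apart. At the OAS cluster, RPH3A on one side was at a log2 fold change of 0.74 (edgeR adjusted p = 0.754) and DTX1 on the other at 1.17 (0.827). Both had low levels, 0.546 to 3.55 CPM for RPH3A and 0 to 2.71 CPM for DTX1. Beside OASL, P2RX7 was at -0.04 (0.981). GPATCH11, which shares 35 bases with EIF2AK2 on the opposite strand, was at -0.11 (0.940), and AC007390.5 at -0.13 (0.891). Beside ADAR, CHRNB2 was at -1.26 (0.0591, or 0.0150 with the block, then counted as lower) and KCNN3 at -1.65 (0.718). KCNN3 was also low, at 0 CPM in KD replicate 1 and at most 4.77 CPM, in WT replicate 3.

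The genes whose log2 level followed the mean profile of the 6 most closely over the 6 libraries, among 13529 genes with a mean of at least 1 CPM, were ST14 (r = 0.999), IRF7 (0.999), USP18 (0.999), HK2 (0.998) and TAP1 (0.998). These correlations mostly record the gap between the conditions and are given as a description. ST14, a membrane serine protease, was nearly silent in WT and had 172 CPM in KD. IRF7, a transcription factor of the interferon response, rose by 3.44 on the log2 scale, USP18, which removes ISG15, by 4.40, and TAP1, the peptide transporter, by 3.06. HK2, a glycolytic hexokinase, rose by 1.3, from a mean of 112 to 274 CPM.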

How the data were processed

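Reads of 6 libraries had been aligned and quantified by the authors with STAR and RSEM against the human genome, and the deposited table holds expected counts per gene, not normalized. The annotation release and strand setting were not given in the sources used here. Expected counts divide reads shared between genes or transcripts and need not be whole. They were rounded before testing. Genes at 0 throughout (33470 rows) and low genes (edgeR filterByExpr) were left out, leaving 15605. KD was compared with WT by the edgeR (4.0.16, R 4.3.3) quasi-likelihood test with TMM factors, and p-values were adjusted by Benjamini-Hochberg over all tested genes. CPM use TMM-scaled library sizes. Planned exact permutation tests of ratios between members adjacent in fold change are not given, since the order of the fold changes fixes their direction. Tables and figures were made in Python 3.11.15. Coordinates and lengths are from GRCh37 (GENCODE annotation), promoters from RefSeq on GRCh38.p14. The scripts were tested on simulated data.

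The 6 genes, the lists and the motifs were chosen with earlier results of these data known. Named genes were the members, a set of partners named whether or not they passed, every other gene past the threshold in the 4 pathway lists, the ISGF3 and IFIT genes, STAG2, and the 5 non-member genes most like the members' mean profile. Other genes named (ADARB2, AKAP7, MAVS, the block-only calls and the nearest neighbours) were chosen after their values were seen. Some genes under these rules are not reported here.

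Deviations from the group mean correlated between libraries of the same replicate number (r = 0.380 to 0.607 over 8932 genes). They correlated less between other pairs (-0.555 to 0.305). On this ground the numbers were taken to pair the libraries in the block. No label says that a number marks a shared batch or culture. Outside replicate 1 the gap was narrower, 0.380 and 0.479 for the same number against 0.198 and 0.305. The study's RNA-seq methods name no pairing, so the block was an alternative, although its qPCR comparisons of STAG2 knockdown used ratio paired t-tests. The others were DESeq2 1.42.0, limma-voom (limma 3.58.1), upper-quartile scaling, no filter, at least 10 counts in every library, each library left out, CPM without TMM factors, and the longest transcript as the length. Leaving out both replicate 1 libraries and the motif with 1 base between were added after seeing the data.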

Additional observations from a re-analysis of the deposited data

How the results depend on the processing

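Of 78 alternative values of the members' log2 fold changes, 75 kept their direction and their side of the threshold, 3 fell short of the threshold and 0 reversed. The 3 are ADAR with a library left out, where its log2 fold change ranged from 1.35 to 1.60, so that 5 to 6 members were called higher. STAG2 ranged from -2.63 to -1.68 in the same fits. Over all tested genes, 796 were higher and 690 lower with the replicate block, 547 and 432 with DESeq2, 573 and 530 with no filter on low counts, 461 and 296 without both replicate 1 libraries (chosen after seeing the data), and 106 to 340 and 15 to 191 with a library left out. In the PKR and eIF2 list, 2 genes were higher with the replicate block and 2 with no filter, 2 without both replicate 1 libraries, 0 to 2 with a library left out, and 2 were lower with the block. In the editing list, 2 were higher with no filter and 0 to 1 with a library left out, and 1 was lower with the replicate block. Among the cell type markers, the lower calls went from 1 to 6 melanocyte lineage genes and from 0 to 1 fibroblast gene with the block. The block changed no other call among the members and the genes named from the pathway, ISGF3 and IFIT lists. With a library left out, 3 to 4 genes of the RIG-I-like receptor list and 3 to 4 IFIT genes were higher. The cause of these differences was not tested. Depth limits values that rest on few counts, such as ZBP1, at 0 in 2 WT libraries, and OASL, at 23 expected counts in WT replicate 1.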
